A study of Gallus gallus with 8 samples.

Results

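The genes described here were 43 names of the hypoxia response and of glycolysis: the hypoxia-inducible factors (HIFs) and their regulators, HIF targets outside glycolysis, glucose transporters, glycolytic enzymes, PFKFB regulators, enzymes that set the fate of pyruvate, and lactate transporters. They were found by gene symbol, and 39 of the 43 were among the 24154 genes of the count table. *EGLN2*, *ANKRD37*, *SLC2A3* and *PFKFB1* did not appear under those symbols and were left out of the set. *SLC2A14*, for which *SLC2A3* is another name, is given apart under the other observations. Of the 39, 38 had enough counts to be tested, among 13639 genes tested in all. The count table came from RNAseq of intervertebral discs (IVDs) of 10-wk-old chickens, with 4 libraries of discs between the fusing vertebrae of the pygostyle, the fused bone at the tip of the bird tail, and 4 of free caudal discs that stay unfused. The labels give no treatment. The sample labels give the breed as white leghorn and the study's methods as Tetra. Each group is 4 biological replicates per the study's methods, which name 8 chickens as the source of the 8 libraries without saying which bird gave which library. Total RNA was isolated from dissected discs, so a library mixed the cell types of the dissected piece.

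In cells short of oxygen, HIF alpha subunits escape degradation, pair with ARNT and switch on genes for glucose uptake, glycolysis, lactate export and angiogenesis. When oxygen is present, prolyl hydroxylases of the EGLN family mark the alpha subunits for the ubiquitin ligase subunit VHL, and HIF1AN hydroxylates them at another site. HIF alpha activity is thus set largely at the protein level, which RNAseq does not measure. The mammalian disc is a large tissue with few vessels, and its cells are known for living on glycolysis and exporting lactate.

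The libraries held 5682402 to 18434459 counts. Their composition differed between the tissues. The 10 most abundant genes took 34.3 to 44.4% of the counts in free IVDs and 18.0 to 25.2% in fusing pygostyle IVDs. Scaling by trimmed means (TMM factors) allowed for this, with factors of 0.70 to 0.86 in free and 1.14 to 1.39 in fusing libraries. With plain library totals the median gene was 0.70 higher in fusing IVDs on the log2 scale, against 0.01 with TMM factors. All fold changes below are therefore changes relative to the bulk of genes, in CPM, a gene's count relative to the library's total scaled by the TMM factor. Calls of the 38 tested genes that library totals removed are given beside each gene. Cartilage markers were abundant in both tissues, at a summed 158900 to 248300 CPM in free and 63690 to 178500 CPM in fusing IVDs. Markers of annulus and other fibrous tissue were lower in fusing IVDs for 9 of 12 genes (160800 to 395000 CPM in free, 44760 to 54070 CPM in fusing). By the test and limits given in the next paragraph, 1 of 14 cartilage markers was called higher (*MATN1*, log2 3.63) and 3 lower (*COL2A1* -1.73, *SOX9* -1.17 and *CHAD* -1.14, the last 2 not called with library totals). The median log2 fold change of the 14 cartilage markers was 0.35, and 0.97 with library totals. *COL2A1* was the largest part of their sum, at a mean of 152400 CPM in free and 46030 CPM in fusing IVDs. The 9 notochord markers summed to 52.1 to 88.5 CPM in free and 41.3 to 103 CPM in fusing IVDs. Of these notochord markers, *NOTO*, *SHH* and *KRT8* averaged under 1 CPM in both tissues, and of the 4 tested *T* (brachyury) was called higher (1.54), *FOXA1* lower (-1.93), and *FOXA2* and *CD24* were not called.

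With a more than 2-fold change at an adjusted p under 0.05, 3 of the 38 tested genes (7.89%) were up-regulated in fusing IVDs, against 13.2% of all genes tested, and 12 (31.6%) were down-regulated, against 9.64% of all genes (edgeR quasi-likelihood test, with Benjamini-Hochberg (BH) adjustment over all genes). The up-regulated genes were *PFKFB2*, *LDHB* and *PDK4*. The down-regulated genes were *EGLN3*, *VHL*, *ADM*, *SLC2A1*, *HK2*, *GPI*, *PFKP*, *ENO2*, *PKM*, *LDHA*, *SLC16A1* and *SLC16A3*. At the same adjusted p and any fold, 5 were higher and 18 lower, where 19.6% of all genes were higher and 19.6% lower. All 4 fusing libraries lay below all 4 free libraries in 18 of the 38 genes (47.4%), against 20.2% of all genes, and above them in 6 (15.8%), against 19.6%. The median log2 fold change of the 38 genes was -0.47 with TMM factors and 0.20 with library totals. With library totals, 15 of the 38 changed sign, none of them called with TMM factors. The genes were chosen with earlier results of these data known, so their shares do not measure a departure from chance.

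**Figure D1:**
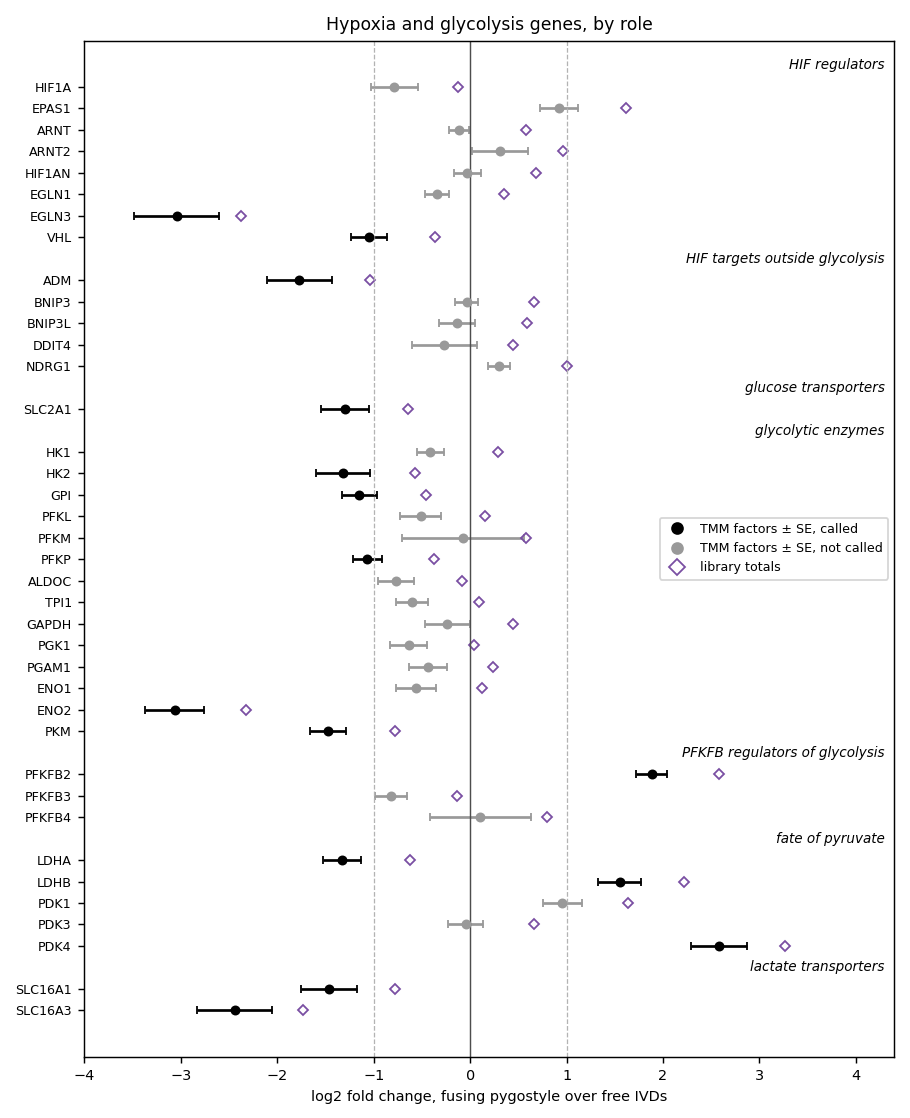
Log2 fold change of each tested gene, fusing pygostyle over free IVDs, grouped by role. Filled points are edgeR estimates with TMM factors and their standard errors (black where called), open diamonds are the estimates with library totals, and dashed lines mark a 2-fold change. The diamonds sit to the right of the points throughout, and *EGLN3*, *ADM*, *ENO2* and *SLC16A3* remain past a 2-fold fall on both scales.

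Markers of other cell types moved with the tissue in the same libraries. All 10 detected markers of heterophils, the avian counterpart of neutrophils, were up-regulated (summed 69.8 to 454.7 CPM in free, 1579 to 7448 CPM in fusing IVDs), as were all 11 macrophage markers (48.0 to 80.1 against 287 to 614.5 CPM). Osteoblast markers were up-regulated for 7 of 9 genes (161 to 1557 against 4475 to 6379 CPM), and osteoclast markers for 6 of 9, with 1 down-regulated (331 to 1159 against 2584 to 3715 CPM). Of 8 erythroid markers 1 was up-regulated, and their sum overlapped between tissues (3337 to 12780 CPM in free, 6971 to 33060 CPM in fusing IVDs, median log2 fold change 1.23). With library totals all 8 were called higher, where 30.6% of all genes were. Their part in the changes of the genes below was not tested. In bulk tissue, fewer cells of a type and less RNA per cell cannot be told apart.

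Among the HIF regulators, the oxygen sensor *EGLN3* had the largest change, and the balance of the alpha subunits differed between tissues. None of the 8 tested regulators was called up-regulated, against 13.2% of all genes, and 2 (25%) were down-regulated, against 9.64%. The median log2 fold change of the 8 was -0.23. *HIF1A*, the alpha subunit found in most cells (chromosome 5, 54161507 to 54192275, GRCg6a), had 616, 419, 666.5 and 698.5 CPM in free replicates 1 to 4 and 371, 278, 486.5 and 257 CPM in fusing replicates 1 to 4. The groups overlapped, since fusing replicate 3 was above free replicate 2. Its log2 fold change was -0.79 (SE 0.25, edgeR BH-adjusted p = 0.031), short of a 2-fold change. Without fusing replicate 3 it was -1.004, which passed. *EPAS1*, the alpha subunit HIF-2alpha known from endothelium and also made by chondrocytes (chromosome 3, 26671415 to 26748494), had 67.9, 80.5, 126 and 103 CPM in free and 199, 186.5, 179 and 152 CPM in fusing IVDs. All fusing libraries were above all free libraries, a log2 change of 0.93 (SE 0.20, edgeR BH-adjusted p = 0.00539), just under the 2-fold limit. It passed that limit without free replicate 3 (1.09), with upper-quartile factors (1.02), with library totals (1.62) and with the sample codes as a block (1.09).

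Within each library, the log2 ratio of *HIF1A* to *EPAS1* counts averaged 2.68 ± 0.38 (SD, n = 4) in free and 0.92 ± 0.37 (SD, n = 4) in fusing IVDs, a difference of -1.76. Such a ratio does not depend on the scaling between libraries. All fusing libraries were below all free libraries, with an exact two-sided permutation p = 0.0286, the smallest that 4 against 4 libraries allow, and an adjusted p = 0.0429 over the 9 paralog ratios compared. That same pair of p values holds for each of the 6 ratios given below as passing the test. Paired by replicate number, these 6 ratios had an adjusted exact p = 0.161, where 4 pairs allow no p under 0.125 before adjustment. Per length of exon, *EPAS1* made up 15.9 to 24.8% of the alpha subunit transcripts in free and 38.8 to 53.6% in fusing IVDs. These shares depend on the summed exon lengths, 9766 bases for *HIF1A* and 5681 for *EPAS1*. Undivided by length, *HIF1A* averaged 348 CPM and *EPAS1* 179 CPM in fusing IVDs. Endothelial markers were called in neither direction for any of 9 genes, with SEs of up to 0.65 (*KDR*). They summed to 177.5, 167, 517 and 467 CPM in free replicates 1 to 4 and to 252 to 292 CPM in fusing IVDs. *ERG* was lower within 2-fold (log2 -0.85, edgeR BH-adjusted p = 0.00239). *TEK* had all fusing libraries above all free libraries (1.09, edgeR BH-adjusted p = 0.102). The part of endothelium in the *EPAS1* values was not tested.

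*EGLN3*, the prolyl hydroxylase PHD3 and itself a HIF target in mammals (chromosome 5, 35913745 to 35941732), had 56.0, 80.01, 39.2 and 35.3 CPM in free and 4.70, 3.44, 12.9 and 4.43 CPM in fusing IVDs. Every fusing library was below every free library, and fusing replicate 3 stood above the other fusing libraries. The change was 8.25-fold lower (log2 -3.04, SE 0.44, edgeR BH-adjusted p = 0.000833), and without fusing replicate 3 the log2 fold change was -3.64. *EGLN1*, the prolyl hydroxylase PHD2 and the main oxygen sensor in mammalian cells, had 134, 140, 129.5 and 139.7 CPM in free and 110.3, 96.0, 127 and 96.0 CPM in fusing IVDs. These groups did not overlap but lay close, and the log2 fold change of -0.34 (SE 0.12) had an edgeR BH-adjusted p = 0.055. The log2 ratio of *EGLN3* to *EGLN1* differed by -2.83 and passed the test. *EGLN3* was 19.1 to 34.8% of the transcripts of the pair per length in free and 3.24 to 8.64% in fusing IVDs.

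*VHL*, which recognizes hydroxylated HIF alpha (chromosome 12, 19828489 to 19832178), had 35.7, 47.3, 32.97 and 35.1 CPM in free and 17.8, 14.1, 24.0 and 16.8 CPM in fusing IVDs. The groups did not overlap. Its fall of 2.07-fold (log2 -1.05, SE 0.18, edgeR BH-adjusted p = 0.00199) lay at the 2-fold limit and dropped under it without free replicate 2 (-0.93), without fusing replicate 2 (-0.96), with upper-quartile factors (-0.95) and with library totals (-0.36). Exons of *VHL* overlap those of *THUMPD3* and *IRAK2* on the same strand, with 4047 and 13576 counts against 2916 for *VHL* over all libraries. The counts of *VHL* are therefore less certain. The dimer partners *ARNT* (log2 fold change -0.12, 73.4 to 88.2 CPM over all libraries) and *ARNT2* (0.31, 10.7 to 33.4 CPM) and the inhibitor *HIF1AN* (-0.03, 17.4 to 25.7 CPM) were not called, with edgeR BH-adjusted p values of 0.395, 0.427 and 0.897. With library totals the signs of *ARNT*, *HIF1AN* and *EGLN1* turned positive.

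Among the 5 HIF targets outside glycolysis, only *ADM* was called (20% lower, against 9.64% of all genes), and their median log2 fold change was -0.14. *ADM*, the vasodilator peptide adrenomedullin (chromosome 5, 9240509 to 9243188), had 8.98, 17.5, 6.81 and 6.54 CPM in free and 3.29, 2.55, 2.59 and 3.16 CPM in fusing IVDs. The groups did not overlap, and free replicate 2 was the highest. It was 3.41-fold lower in fusing IVDs (log2 -1.77, SE 0.34, edgeR BH-adjusted p = 0.00308) and stayed called with library totals (-1.04). The mitophagy receptors *BNIP3* and *BNIP3L* overlapped between tissues. *BNIP3* had 46.5, 46.3, 37.6 and 41.2 CPM in free and 40.8, 39.7, 38.4 and 48.1 CPM in fusing IVDs (log2 fold change -0.04, SE 0.12). *BNIP3L* had 345, 401, 253 and 282 CPM in free and 288, 365, 247.5 and 264 CPM in fusing IVDs (log2 fold change -0.14, SE 0.19). The log2 ratio of *BNIP3L* to *BNIP3* differed by -0.09 (exact permutation p = 0.629, adjusted p = 0.629), smaller than its SD of 0.17 in free and 0.31 in fusing IVDs (n = 4 each). *DDIT4*, an inhibitor of mTORC1 signalling, ranged from 164 to 488.5 CPM in free and from 166 to 313 CPM in fusing IVDs (log2 fold change -0.27). *NDRG1*, a stress-responsive gene, ranged from 77.2 to 90.2 CPM in free and from 91.9 to 114.6 CPM in fusing IVDs. Its groups did not overlap, and its log2 fold change of 0.30 had an edgeR BH-adjusted p = 0.0565. With library totals it was 1.01, past the 2-fold limit, and *BNIP3*, *BNIP3L* and *DDIT4* turned positive.

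Of the glucose and lactate transporters in the set, *SLC2A1*, *SLC16A1* and *SLC16A3* were lower in fusing IVDs. *SLC2A1*, the glucose transporter GLUT1 (chromosome 21, 6460789 to 6475322), had 172, 140.3, 179 and 169.9 CPM in free and 68.9, 41.3, 101.2 and 57.5 CPM in fusing IVDs. The groups did not overlap, and fusing replicate 3 was the nearest to the free libraries. The fall was 2.46-fold (log2 -1.30, SE 0.25, edgeR BH-adjusted p = 0.00307), and with library totals the log2 fold change was -0.64, within 2-fold. Exons of *SLC2A1* overlap those of *ZMYND12* on the other strand, which had 322 counts over the 8 libraries against 12063 for *SLC2A1*. *SLC2A2*, the liver and pancreas transporter GLUT2, was near the floor, with 2 counts in the free and 18 in the fusing libraries together, and was not tested. The ratio of its counts per library total, fusing over free, was 10.9, with an exact 95% interval of 2.60 to 96.7 that covers counting error only. That ratio used plain library totals, without TMM factors. Scaled by TMM factors, *SLC2A2* averaged 0.039 CPM in free and 0.27 CPM in fusing IVDs, a smaller ratio.

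The lactate and proton carriers *SLC16A1* (MCT1) and *SLC16A3* (MCT4) were both down-regulated. *SLC16A3*, the carrier of lactate-exporting cells in mammals (chromosome 18, 4867204 to 4876040), had 311, 560.4, 189 and 366 CPM in free and 56.9, 53.6, 109 and 42.8 CPM in fusing IVDs. Free replicate 2 was the highest and fusing replicate 3 the highest of its group, without overlap between groups. The change was 5.43-fold lower (log2 -2.44, SE 0.39, edgeR BH-adjusted p = 0.00124), and the call held with library totals (-1.73). *SLC16A1* (chromosome 26, 3611402 to 3628787) had 244, 344, 199 and 223 CPM in free and 66.7, 73.0, 149.8 and 77.0 CPM in fusing IVDs. Here too the groups did not overlap, and fusing replicate 3 stood apart from the other fusing libraries. The fall was 2.76-fold (log2 -1.46, SE 0.29, edgeR BH-adjusted p = 0.00373), and -0.78 with library totals, no longer called. Between tissues the ratio of *SLC16A3* to *SLC16A1* differed by -0.92 on the log2 scale and passed the test. *SLC16A3* was 70.6 to 80.5% of the pair per length in free and 58.3 to 68.3% in fusing IVDs.

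**Figure D2:**
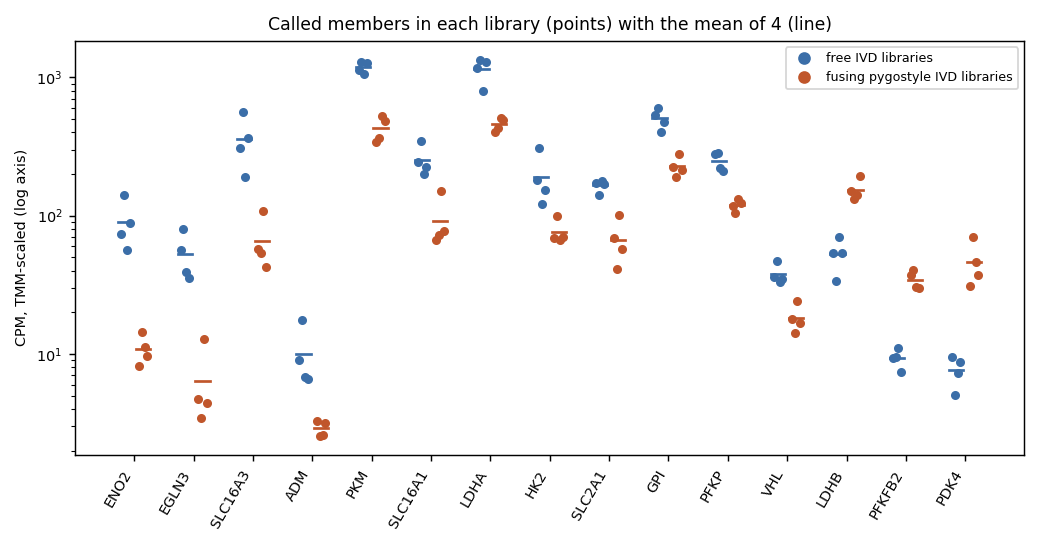
TMM-scaled CPM (log axis) of the 15 called genes in each library, with the mean of 4 libraries as a line. In each of the 15 genes the free and fusing libraries do not overlap, from *ENO2* (56.0 to 142 CPM in free, 8.21 to 14.4 CPM in fusing) to *PDK4* (5.06 to 9.56 CPM in free, 30.9 to 70.03 CPM in fusing). The genes were picked by their difference between the same libraries, so the lack of overlap largely follows from the choice.

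Of the 14 glycolytic enzymes, 5 (35.7%) were down-regulated, against 9.64% of all genes, and none was up-regulated, against 13.2%. Whatever the size of the fall, 9 of the 14 were lower with an adjusted p under 0.05, as were 19.6% of all genes. The median log2 fold change of the 14 enzymes was -0.62 with TMM factors and 0.06 with library totals. As a share of all counts in a library they took 0.562 to 0.597% in free and 0.508 to 0.663% in fusing IVDs, so the summed enzymes overlapped on that scale. Summed by step of the pathway and divided by exon length, 9 of 11 steps, lactate dehydrogenase included, had every fusing library below every free library. Taken singly, 20.2% of all genes tested had this separation. The largest log2 differences were at pyruvate kinase (-1.49), glucose-6-phosphate isomerase (-1.15) and hexokinase (-1.01). The steps of glyceraldehyde-3-phosphate dehydrogenase (-0.28) and phosphoglycerate mutase (-0.48) overlapped between tissues.

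**Figure D3:**
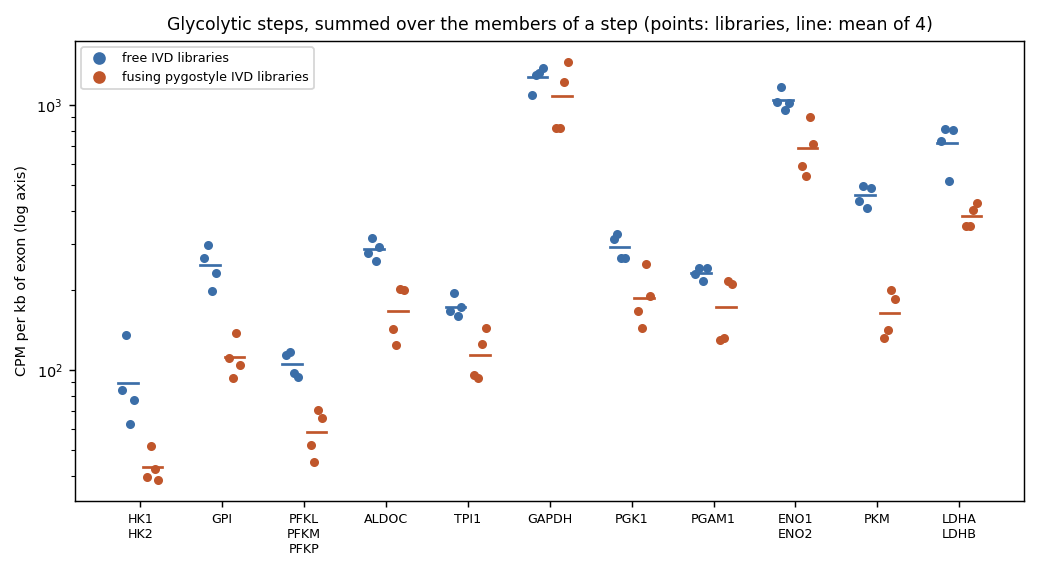
Transcript level of each step from hexokinase to lactate dehydrogenase, as CPM per kb of exon (log axis) summed over the genes named below the axis. Points are libraries and lines the mean of 4. Fusing libraries lie below free libraries in all steps but *GAPDH* and *PGAM1*, and the gap is widest at *PKM* (409 to 495 in free, 132 to 201 in fusing).

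At the first step, *HK2*, the hexokinase of glycolytic tissues in mammals (chromosome 22, 4050924 to 4066880), had 181, 307, 122 and 154 CPM in free and 69.5, 100.2, 66.8 and 70.2 CPM in fusing IVDs. The groups did not overlap. It fell 2.50-fold (log2 -1.32, SE 0.28, edgeR BH-adjusted p = 0.00534), and with library totals the log2 fold change was -0.58, no longer called. *HK1*, the widespread hexokinase, had 83.7, 109.1, 83.5 and 99.2 CPM in free and 66.2, 71.6, 83.9 and 60.9 CPM in fusing IVDs. Fusing replicate 3 overlapped the free group, and *HK1* changed by -0.41 on the log2 scale (SE 0.14, edgeR BH-adjusted p = 0.0433). *HK2* relative to *HK1* differed by -0.84 in log2 ratio and passed the test. *GPI*, glucose-6-phosphate isomerase (chromosome 11, 10964813 to 10985639), had 537.5, 602, 405 and 473 CPM in free and 226, 189.7, 281 and 212 CPM in fusing IVDs. These groups lay well apart. Its fall was 2.22-fold (log2 -1.15, SE 0.18, edgeR BH-adjusted p = 0.00116), and -0.46 with library totals, no longer called.

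Phosphofructokinase, the committed step, is made from the genes *PFKL*, *PFKM* and *PFKP*. *PFKP*, the platelet form (chromosome 2, 11439905 to 11481490), was the most abundant per length, at 65.3 to 72.7% of the family in free and 54.7 to 68.3% in fusing IVDs. It had 281, 285, 219.9 and 209 CPM in free and 117, 104, 132 and 122.5 CPM in fusing IVDs, without overlap. The fall of 2.09-fold (log2 -1.06, SE 0.15, edgeR BH-adjusted p = 0.000698) lay at the limit and missed it without free replicate 2 (-0.999), with upper-quartile factors (-0.97) and with library totals (-0.37). *PFKL*, the liver form, had 64.0, 68.0, 70.2 and 64.1 CPM in free and 38.3, 30.8, 66.7 and 50.5 CPM in fusing IVDs. Fusing replicate 3 lay within the free range, and the log2 fold change of -0.51 (SE 0.21) had an edgeR BH-adjusted p = 0.0839. The log2 ratio of *PFKP* to *PFKL* differed by -0.48 (exact permutation p = 0.114, adjusted p = 0.147) and its groups overlapped. Without fusing replicate 2 that ratio differed by -0.60 with an adjusted p = 0.0429. *PFKM*, the muscle form, ranged from 6.63 to 14.1 CPM in free and from 2.67 to 22.3 CPM in fusing IVDs, and was highest in fusing replicate 4. Skeletal muscle markers were also highest in that library, at a summed 1192 CPM against 6.48 to 17.3 CPM in the other fusing libraries and 23.9 to 682 CPM in free IVDs. The part of muscle tissue in the *PFKM* value was not tested.

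The middle steps moved less. *ALDOC* (log2 fold change -0.77, SE 0.19), *TPI1* (-0.60, SE 0.17) and *PGK1* (-0.64, SE 0.19) had edgeR BH-adjusted p values of 0.00995, 0.0187 and 0.0247, within a 2-fold change, and each had all fusing libraries below all free libraries. *GAPDH*, often taken as a reference gene, had 1405 to 1778 CPM in free and 1053 to 1883 CPM in fusing IVDs (-0.24, SE 0.23, edgeR BH-adjusted p = 0.453). *PGAM1* ranged from 366 to 410 CPM in free and from 219 to 366 CPM in fusing IVDs (-0.44, SE 0.20, edgeR BH-adjusted p = 0.115). With library totals *TPI1*, *PGK1*, *GAPDH*, *PGAM1*, *HK1*, *PFKL*, *PFKM* and *ENO1* had small positive values, from 0.04 for *PGK1* to 0.58 for *PFKM*. Exons of *PGK1* overlap a gene on the other strand, LOC107052085, with 7827 counts against 36885 for *PGK1* over the 8 libraries.

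*ENO2*, the enolase known as the neuronal form (chromosome 1, 77953530 to 77962833), had the largest fall of the enzymes. It had 73.1, 142, 56.0 and 88.0 CPM in free and 8.21, 14.4, 11.2 and 9.60 CPM in fusing IVDs. The groups were far apart, with a fall of 8.36-fold (log2 -3.06, SE 0.31, edgeR BH-adjusted p = 0.000157), and the log2 fold change was -2.33 with library totals, still called. *ENO1*, the widespread enolase, had 1871, 2096, 1765 and 1855 CPM in free and 1105, 1006, 1691 and 1335 CPM in fusing IVDs. All fusing libraries were lower, fusing replicate 3 by the least, and the log2 fold change of -0.56 (SE 0.20) had an edgeR BH-adjusted p = 0.0534. Per length *ENO2* was 2.49 to 5.17% of the enolase transcripts in free and 0.529 to 1.14% in fusing IVDs, and the log2 ratio of *ENO2* to *ENO1* differed by -2.41 and passed the test. *PKM*, pyruvate kinase (chromosome 10, 2035711 to 2052967), had 1127, 1283, 1060 and 1267 CPM in free and 343, 366, 521 and 480 CPM in fusing IVDs. Again no fusing library reached the free range. It fell 2.77-fold (log2 -1.47, SE 0.19, edgeR BH-adjusted p = 0.000427), and with library totals the log2 fold change was -0.78, no longer called.

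The PFKFB enzymes set the level of fructose 2,6-bisphosphate, the strongest activator of phosphofructokinase, and their mix differed between tissues. *PFKFB2*, the heart form in mammals (chromosome 26, 2618310 to 2634448), had 9.37, 9.49, 11.1 and 7.404 CPM in free and 37.4, 40.4, 30.8 and 29.8 CPM in fusing IVDs. The groups did not overlap and the rise was 3.69-fold (log2 1.88, SE 0.16, edgeR BH-adjusted p = 9.42e-05). Exons of *PFKFB2* overlap those of *YOD1* on the other strand, with 2348 counts against 2536 over the 8 libraries. The libraries were unstranded, and the study's counting left out reads that mapped to different genes or to duplicate exons. The effect of the overlap on the *PFKFB2* count was not tested. *PFKFB3*, the hypoxia-inducible form (chromosome 1, 4125378 to 4178122), had 98.0, 83.6, 104.9 and 113 CPM in free and 54.0, 56.1, 72.4 and 43.8 CPM in fusing IVDs. Every fusing library lay below every free library, and its log2 change of -0.82 (SE 0.17, edgeR BH-adjusted p = 0.00408) was within 2-fold. Its exons overlap those of *RBM17*, with 3603 counts against 8076. *PFKFB4* had 1.16, 2.89, 0.80 and 0.75 CPM in free and 1.13, 0.64, 2.21 and 1.93 CPM in fusing IVDs, and overlapped (0.11, SE 0.52). The log2 ratio of *PFKFB3* to *PFKFB4* differed by -0.99 (exact permutation p = 0.229, adjusted p = 0.257), and rested on 66 counts of *PFKFB4* in free and 99 in fusing IVDs. Per length, *PFKFB2* made up 14.4 to 21.2% of the PFKFB transcripts in free and 47.1 to 64.0% in fusing IVDs, and *PFKFB3* 59.9 to 80.1% and 30.1 to 40.3%. These shares depend on the summed exon lengths, 16200 bases for *PFKFB3*, 5876 for *PFKFB2* and 1578 for *PFKFB4*. Undivided by length, *PFKFB3* stayed above *PFKFB2* in fusing IVDs, at a mean of 56.6 against 34.6 CPM.

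At the branch after pyruvate, the lactate dehydrogenase subunits moved in opposite directions. *LDHA*, the subunit that favours lactate formation (chromosome 5, 12754120 to 12760009), had 1178, 1345, 795 and 1298 CPM in free and 406, 432, 511 and 489 CPM in fusing IVDs. The groups did not overlap, and the fall was 2.51-fold (log2 -1.33, SE 0.20, edgeR BH-adjusted p = 0.00096). With library totals it was -0.62, no longer called. Exons of *LDHA* overlap *TSG101* on the other strand, which had 4559 counts against 82985. *LDHB*, the subunit of oxidative tissues such as heart (chromosome 1, 67031006 to 67040698), had 53.6, 33.6, 70.3 and 53.9 CPM in free and 152, 133, 140.4 and 194 CPM in fusing IVDs. Every fusing library was above every free library, and the rise was 2.93-fold (log2 1.55, SE 0.22, edgeR BH-adjusted p = 0.000781). The log2 ratio of *LDHA* to *LDHB* counts averaged 4.47 ± 0.75 (SD, n = 4) in free and 1.58 ± 0.25 (SD, n = 4) in fusing IVDs, a difference of -2.89 that passed the test and was the largest of the 9 ratios. Per length *LDHB* was 3.01 to 9.88% of the pair in free and 25.4 to 32.9% in fusing IVDs.

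Pyruvate dehydrogenase kinases switch off the entry of pyruvate into the TCA cycle, and *PDK1* is a HIF target in mammals. *PDK4*, the kinase of fasting and fat use (chromosome 2, 23874761 to 23914452), had 9.56, 5.06, 7.34 and 8.69 CPM in free and 30.9, 70.03, 46.2 and 37.4 CPM in fusing IVDs. The groups were far apart, and the rise of 5.97-fold (log2 2.58, SE 0.29, edgeR BH-adjusted p = 0.000271) was the largest of the 38 genes. *PDK1* had 11.2 to 20.2 CPM in free and 22.6 to 32.7 CPM in fusing IVDs, without overlap. Its log2 fold change of 0.96 (SE 0.20, edgeR BH-adjusted p = 0.00483) was just under the 2-fold limit, and passed it without free replicate 3 (1.12), without fusing replicate 4 (1.07), with upper-quartile factors (1.05), with library totals (1.63) and with the sample codes as a block (1.10). *PDK3* overlapped, at 23.2 to 37.3 CPM in free and 26.2 to 37.0 CPM in fusing IVDs (-0.05, SE 0.18, and 0.66 with library totals). Per length *PDK4* was 6.08 to 12.8% of the 3 kinases in free and 23.0 to 38.6% in fusing IVDs, and *PDK3* was 50.5 to 71.0% and 29.4 to 35.7%.

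**Figure D4:**
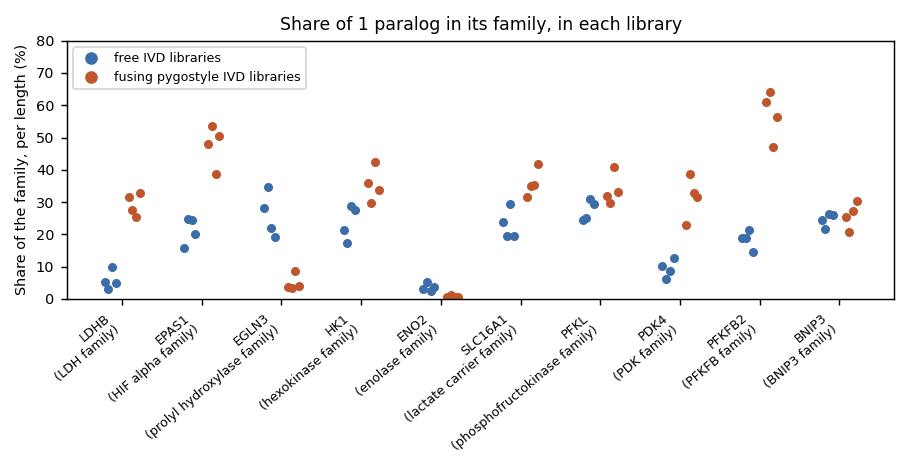
Share of a named gene among the transcripts of its family in each library, in percent, after division by exon length. The shares of *LDHB*, *EPAS1*, *PFKFB2* and *PDK4* lie higher and that of *EGLN3* lower in each fusing library than in any free library, while those of *PFKL* and *BNIP3* overlap between tissues.

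The libraries of a group differed from each other in a shared way. Free replicate 2 was the highest free library in 23 of the 38 genes and in 11 of the 12 down-regulated genes. It also had the highest fibrous tissue markers (395000 CPM) and the largest share of counts in the 10 most abundant genes (44.4%). Fusing replicate 3 was the highest fusing library in 21 of the 38 genes and in 9 of the 12 down-regulated genes. That library had the lowest heterophil (1579 CPM) and macrophage (287 CPM) markers and the highest cartilage markers (178500 CPM) of the fusing libraries. Their part in the gene values was not tested. Leaving out either library removed the call of *VHL* and *PFKP* (free replicate 2) or added *HIF1A* (fusing replicate 3), and changed the call of no other gene of the 38.

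Genes outside the 43, in lists of the same and neighbouring pathways, are set beside the shares of all genes called. These were 13.2% higher and 9.64% lower with TMM factors and 30.6% higher and 4.58% lower with library totals. The lists too were chosen with earlier results of these data known, so the shares describe them and do not measure a departure from chance. Of 33 other HIF targets tested, 13 were down-regulated (39.4%) and 1 was up-regulated (3.03%), with a median log2 fold change of -0.85. The up-regulated gene was *CXCR4* (log2 2.53, SE 0.46, edgeR BH-adjusted p = 0.00256). With library totals 10 were called lower and 2 higher, with a median of -0.18, and *PLOD2*, *ZNF395* and *KDELR3* lost the call. They included *CA9*, a carbonic anhydrase of hypoxic cells, which had 57.5 to 292.5 CPM in free and 0.22 to 0.53 CPM in fusing IVDs (log2 -8.29, SE 0.75, edgeR BH-adjusted p = 0.000102). The angiogenic factor *VEGFA* was also lower (132 to 367 CPM against 12.8 to 32.2 CPM, log2 -3.37, SE 0.40, edgeR BH-adjusted p = 0.000327), as was the lipase inhibitor *ANGPTL4* (-2.72). The 13 also held the collagen-modifying enzymes *P4HA2* (-1.92), *PLOD1* (-1.87), *PLOD2* (-1.10), *LOX* (-2.32) and *LOXL2* (-2.34), while *P4HA1* (-0.85) was not called. Fibrous tissue markers were lower for 9 of 12 genes and higher for 1 in the same libraries. The part of fibrous tissue in these calls was not tested. Other regulators of the HIF pathway were mixed, with 2 of 17 up-regulated (11.8%) and 2 down-regulated (11.8%). Those named were the transcriptional repressors *BHLHE40* (-2.49) and *BHLHE41* (-1.25, and -0.57 with library totals, not called), both HIF targets in mammals, and the coactivator partner *CITED4* (1.36).

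The other glycolysis and gluconeogenesis genes had 2 of 17 up-regulated (11.8%) and 1 down-regulated (5.88%), near the shares of all genes. The gene *FBP1*, fructose-1,6-bisphosphatase of gluconeogenesis, had 3.602 CPM in free and 34.2 CPM in fusing IVDs on average (log2 3.21, SE 0.57, edgeR BH-adjusted p = 0.00212). *HK3* was the gene that fell (-1.14, and -0.43 with library totals, not called). Other sugar, lactate and pyruvate carriers had 4 of 14 up-regulated (28.6%) and 1 down-regulated, *SLC2A11*, which lost the call with library totals. Among those up-regulated were *EMB*, embigin, a partner protein of monocarboxylate carriers (3.12), and *SLC16A7*, the carrier MCT2 (2.06). Glycogen genes had 1 of 15 called (6.67%), the glycogen-targeting phosphatase subunit *PPP1R3B* (-1.91), with a median of -0.14. The pentose phosphate pathway had 2 of 10 up-regulated, *RPIA* (1.48) among them, none down-regulated and a median of 0.72. With library totals 8 of the 10 were called higher.

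In the list of pyruvate dehydrogenase and the TCA cycle, 4 of 29 were up-regulated (13.8%), near the 13.2% of all genes, including *SUCLG2* (1.80) and *MDH1* (1.66), and the median was 0.22. With library totals 13 of the 29 were called higher. Of 63 nuclear subunits of the respiratory chain, 4 were up-regulated (6.35%, below the 13.2% of all genes), including *NDUFS7* (1.42), *UQCRH* (1.23) and *NDUFA4* (1.09). At any fold past the same adjusted p, 29 were higher, where 19.6% of all genes were, and none was lower (median 0.45). With library totals 46 of the 63 were called higher, against 30.6% of all genes, and the median was 1.14. The counts of the 14 glycolytic enzymes divided by those of the respiratory chain list were 3.66, 3.83, 3.02 and 3.49 in free and 1.52, 1.31, 2.10 and 1.42 in fusing IVDs. The ratio is free of scaling between libraries, and the tissues did not overlap in it.

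**Figure D5:**
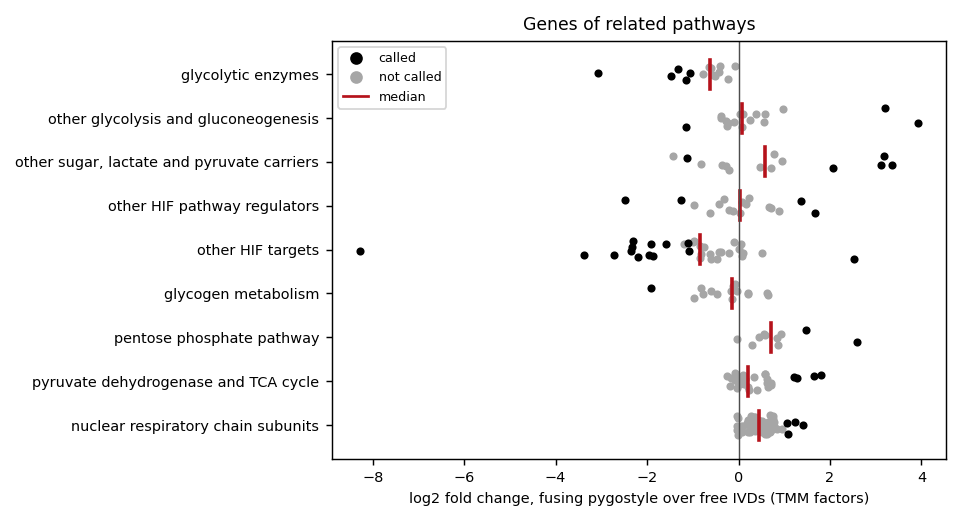
Log2 fold change, fusing pygostyle over free IVDs with TMM factors, of the tested genes in each list (points, black where called) with the list's median (red line). Medians run from -0.85 for the other HIF targets to 0.72 for the pentose phosphate pathway.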

How the data were processed

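RNAseq was measured in 8 libraries, 4 of fusing pygostyle and 4 of free caudal IVDs. The authors made unstranded read pairs from mRNA, aligned them to GRCg6a with STAR, counted them per gene with featureCounts without multi-mapping reads, and deposited raw counts as whole numbers (5682402 to 18434459 per library). They also deposited a DESeq2 comparison (fold changes and p values), which was not used. Depth limits the low genes. Exon overlaps and lengths came from the count table. A length there is the summed exon length of the gene, and the shares per length within a family depend on it.

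The counts were tested over all 13639 genes that passed edgeR's filterByExpr (10 counts minimum) in edgeR 4.0.16 with R 4.3.3, by quasi-likelihood with TMM factors and tissue alone in the model. Calls needed a p value under 0.05 after Benjamini-Hochberg adjustment and a change of more than 2-fold. Ratios of 9 paralog pairs were tested by exact two-sided permutation of libraries. The script was tested on simulated data. Alternatives were RLE, upper-quartile and library-total scaling, DESeq2 1.42.0, limma-voom 3.58.1, other filters, replicate blocks and leaving out each library. The ratios were also recomputed with 1 count added to each gene. Libraries of equal replicate number in the titles had r of deviations of 0.242, 0.159, 0.115 and 0.253, against -0.226 to 0.191 for unequal numbers. Free replicate 3 was closer to fusing replicate 1 (0.191), and fusing replicate 3 to free replicate 4 (0.13), than to each other. The numbers thus did not clearly pair the samples, and the labels do not say what a number marks. The sample codes hold another numbering, in which 12, 10 and 8 occurred in both tissues, 9 only in free and 11 only in fusing IVDs. Equal codes joined free with fusing replicate 1, free replicate 2 with fusing replicate 3 (r = -0.0611), and free with fusing replicate 4. Whether equal codes mark the same bird is not stated in the labels. No pair of replicates had counts that agreed within sampling noise.

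All 43 genes were accounted for, and those called or in a ratio are given per library. Of each other list, at most 3 called genes with the largest change and a mean of at least 5 CPM were named. Marker genes, collagen-modifying enzymes, *CXCR4*, and genes of other lists that lost a call with library totals, were named after their values were seen. The members and lists were chosen with earlier results of these data known. Symbols were compared with the RefSeq table of GRCg7b for synonyms only.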

Additional observations from a re-analysis of the deposited data

Results flagged for a closer look

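In 5 of the 78 groups of 4 libraries examined, the highest or lowest library lay far from the other 3, where chance alone gives about 1 in 20 groups. *EGLN3* had 12.9 CPM in fusing replicate 3 against 3.44 to 4.70 CPM in the other fusing libraries. *SLC16A1* had 149.8 CPM in the same library against 66.7 to 77.0 CPM in the others. *HK2* had 100.2 CPM in fusing replicate 2 against 66.8 to 70.2 CPM in the others. *PDK1* had 22.6 CPM in fusing replicate 4 against 30.9 to 32.7 CPM in the others. *ARNT* had 75.8 CPM in free replicate 1 against 86.9 to 88.2 CPM in the other free libraries.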

How the results depend on the processing

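Of 646 fold changes recomputed under the alternatives, 622 kept their side of the call, 13 lost the call and 11 gained it. No called gene changed sign. In genes that were not called, 32 values changed sign, 15 of them with library totals. The 3 up-regulated genes were 5 with upper-quartile factors, 6 with library totals, 5 with the sample codes as a block and 3 to 5 with each library left out. The 12 down-regulated genes were 4 with library totals (*EGLN3*, *ADM*, *ENO2* and *SLC16A3*) and 10 to 13 with each library left out. With library totals 30.6% of all genes were called higher and 4.58% lower, against 13.2% and 9.64% with TMM factors. Of all 13639 genes, 1954 were called higher with upper-quartile factors and 1606 with the sample codes as a block, against 1797 in the main fit. The replicate block by title number changed no call of a member.

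The ratios under the replicate block kept their differences, with an adjusted exact p = 0.161 for *LDHA* to *LDHB* (-2.89), *HIF1A* to *EPAS1* (-1.76), *EGLN3* to *EGLN1* (-2.83), *HK2* to *HK1* (-0.84), *ENO2* to *ENO1* (-2.41) and *SLC16A3* to *SLC16A1* (-0.92). With each library left out the differences ran from -3.21 to -2.60, from -1.94 to -1.60, from -3.15 to -2.62, from -0.97 to -0.66, from -2.66 to -2.21 and from -1.08 to -0.80 in that order, and from -0.60 to -0.34 for *PFKP* to *PFKL*. Adjusted exact permutation p values were then up to 0.129 for *HK2* to *HK1* and up to 0.103 for *SLC16A3* to *SLC16A1*. For the others of the 6 ratios they were up to 0.0643. The adjustment runs over all 9 ratios, so the adjusted p of a ratio also depends on the p values of the others. Of 90 ratio results recomputed under the replicate block, with 1 count added or with a library left out, 52 kept their side of the test. A further 37 no longer passed it, and 1 gained a pass. Only the 6 ratios that passed with all libraries could lose it. In each of the 6 all fusing libraries lay below all free libraries, which leaving out a library cannot change. With a library left out the exact p moves in coarser steps, so a lost pass there does not by itself mean a smaller difference. With 4 pairs no exact p under 0.125 is possible, so none could pass under the replicate block.

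Depth limits *SLC2A2* and *PFKFB4*. The 4 libraries per tissue and the change of composition limit the calls near 2-fold (*VHL*, *PFKP*, *EPAS1* and *PDK1*). The change of composition also limits the calls of *SLC2A1*, *HK2*, *GPI*, *PKM*, *LDHA* and *SLC16A1*, which library totals removed.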

Other observations

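The RefSeq table of GRCg7b gives *SLC2A3* (GLUT3) as another name of *SLC2A14*. *SLC2A14* had 56.0, 84.4, 48.5 and 53.6 CPM in free and 40.05, 40.4, 34.6 and 24.3 CPM in fusing IVDs, without overlap. Its log2 fold change was -0.80 (SE 0.22, edgeR BH-adjusted p = 0.0161), within 2-fold. It was not among the 39 genes found by symbol.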
